A study of Homo sapiens with 16 samples.

Results

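Ribosome biogenesis factors are the proteins that cut, modify and fold ribosomal RNA (rRNA) and load it with ribosomal proteins before a subunit leaves the nucleolus. The set described here holds 56 genes of 58302 in the count files, listed by symbol as nucleolar assembly factors, with helicases and the ribosomal proteins themselves left out. By role they comprise 7 small nucleolar ribonucleoprotein (snoRNP) proteins, 3 nucleolar scaffold or rDNA factors, 23 factors of the small subunit precursor (pre-40S) and 23 factors of the large subunit precursor (pre-60S).

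The messages were measured in HEK293, an established human embryonic kidney cell line, in a study asking which mRNAs need the RNA-binding protein Gemin5 for their place on polysomes. Cells received an siRNA against Gemin5 at 100 nM (siRNAG5) or served as control (Ctrl). The labels call the Ctrl cells untreated, while the study's methods describe a control siRNA. RNA came from the cytoplasmic lysate (Input) or from the pooled polysomal fractions of a gradient of the same lysate (Polysome), and poly(A) libraries were made from 4 independent biological samples of each of the 4 groups, 16 libraries in all. All groups thus share the HEK293 background, and transient silencing leaves part of the target in place.

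Box C/D snoRNPs guide methylation of rRNA riboses, and box H/ACA snoRNPs guide pseudouridylation. The small subunit processome assembles on the nascent transcript around the U3 snoRNA and trims its 5′ end, whereas pre-60S particles pass through a separate series of nucleolar intermediates and export steps. Genes of this pathway are transcribed together in growing cells, and many of their promoters carry the E-box that MYC family proteins bind.

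The GEMIN5 message itself was lower in every siRNAG5 library. Its CPM (read counts per 1000000 of the library size, as scaled by edgeR's TMM method) were 15.9, 18.9, 15.99 and 20.6 in Input Ctrl replicates 1 to 4 and 7.45, 6.5, 6.22 and 6.67 in Input siRNAG5 (log2 FC -1.40, SE 0.12, adjusted p = 3.11e-10, edgeR). In Polysome they were 5.49, 7.2, 7.75 and 9.27 in Ctrl and 2.1, 3.08, 3.05 and 2.35 in siRNAG5 (log2 FC -1.44, SE 0.21, adjusted p = 0.00477, edgeR). Libraries held 13347866 to 24511299 reads on genes in Input and 11145324 to 16884295 in Polysome, and reads matching several places were 4.88% to 6.04% of Input and 21.2% to 42.4% of Polysome libraries. The HEK293 markers NEFM, NEFL and VIM were detected in every library (lowest CPM 15.8, 35.4 and 285), and INA, PAX2 and LIN28B too (lowest CPM 4.87, 0.348 and 4.35). Reads of 12 liver genes, which HEK293 should not hold, came to 1316 and 1608 in Input Ctrl 4 and 3 and to between 1381 and 1913 in each Polysome Ctrl library, against 9 to 26 in the other 10 libraries. In Polysome these reads and the treatment cannot be told apart. The Polysome libraries also fell into 2 sets that cut across treatment, Ctrl 1 and 2 with siRNAG5 1 and 4 against Ctrl 3 and 4 with siRNAG5 2 and 3, along a component that held 52.8% of the variance within groups, with Ctrl 2 placed least clearly.

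After silencing, messages of most of the listed ribosome biogenesis factors were lower in the lysate, with roles differing in how many were called. Of the 56 genes, 22 fell in Input (adjusted p under 0.05 over all genes tested and log2 FC below -0.5), whereas 6.02% of the 14134 genes tested did so. None was called higher, where 10.5% of all genes were. At the adjusted p alone 46 of the 56 were lower, against 19.1% of all genes, and in 45 the siRNAG5 libraries all lay below the Ctrl libraries, which held for 19.1% of all genes. The median log2 FC of the 56 was -0.45 and that of all genes 0.04, with members ranging from -1.24 for NOP16 to 0.03 for TCOF1 and HEATR1. Their summed level was 9999 ± 500.2 CPM in Input Ctrl and 7222 ± 233 CPM in Input siRNAG5 (mean ± SD, n = 4). CPM are relative to the scaled size of a library, so fewer cells with such messages and less RNA per cell cannot be told apart.

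**Figure D1:**
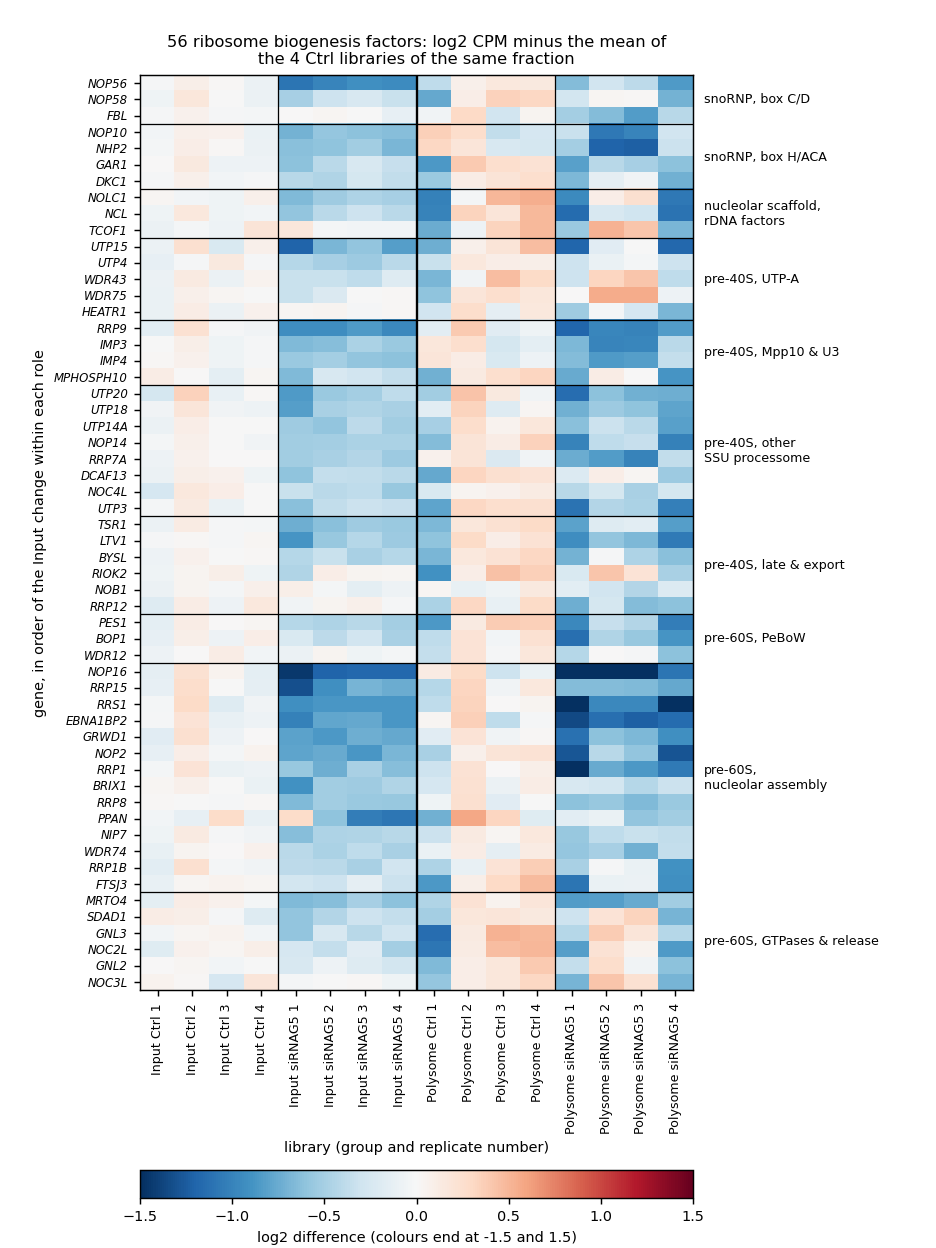
Each cell of the heat map is the log2 CPM of a gene (rows, grouped by role) in a library (columns) minus the mean of the 4 Ctrl libraries of the same fraction, with blue lower and red higher. The 4 Input siRNAG5 columns are blue in nearly all roles, and in Polysome the Ctrl 1 column is blue as well.

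Leaving out 1 Input library at a time gave between 19 and 28 genes called lower (4.83% to 6.65% of all genes), and 18 of the 22 were called each time, all but NOLC1, UTP18, UTP20 and BRIX1. Without Input Ctrl 3 and 4, the Ctrl libraries with liver reads, 26 were called lower, beside 6.64% of all genes (an alternative chosen after seeing the data).

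In Polysome 16 of the 56 messages fell, against 4.0% of 14420 genes tested, and none was called higher, against 3.95%. The median log2 FC was -0.51, beside 0.03 over all genes. At an unadjusted p under 0.05 the number lower was 31 (13.3% of all genes), and in 21 the siRNAG5 libraries lay below every Ctrl library (10.0% of all genes). Both fractions called 14 genes: IMP3, IMP4, RRP9, UTP18, LTV1, NOP2, NOP16, RRP1, RRP15, EBNA1BP2, RRP8, RRS1, GRWD1 and MRTO4. Of the 13708 genes tested in both fractions, 2.48% were called lower in both. A further 8 were called in Input and not in Polysome (NOP56, NOP10, NHP2, NOLC1, UTP15, UTP20, TSR1 and BRIX1), and RRP7A and BOP1 in Polysome and not in Input, but no difference between the fractions passed edgeR's test for any gene. The log2 FC was below 0 in both fractions for 51 of the 56. Over all genes the median was 0.04 in Input and 0.03 in Polysome, and the share below 0 in both was not counted.

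The Polysome count depended on single libraries. It was 4 without Ctrl 2, 6 without Ctrl 4, 6 without siRNAG5 1, 9 without siRNAG5 2 and 6 without siRNAG5 3, and it was 14 without Ctrl 3, 16 without siRNAG5 4 and 19 without Ctrl 1. Calls over all genes fell with it, to 0.768% of genes lower without Ctrl 2, 2.18% without Ctrl 4, 1.74% without siRNAG5 1 and 1.68% without siRNAG5 2 or 3. For the other 3 fits the share of all genes was 3.97%, 5.72% and 2.89%. RRP9, NOP16, EBNA1BP2 and RRS1 were called each time. Polysome Ctrl 1 stood with the silenced libraries: its median over the 56 genes was -0.48 on the log2 scale relative to the Ctrl mean, inside the siRNAG5 range of -0.70 to -0.29, while Ctrl 2, 3 and 4 lay at 0.19, 0.11 and 0.17. Within the first set of Polysome libraries the median difference between siRNAG5 and Ctrl was -0.59 and within the second -0.49, with 52 genes lower in each. With Ctrl 1 as the only control of the first set it was -0.22, with 42 genes lower. These counts within sets were not made over all genes, so no share stands beside them.

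**Figure D2:**
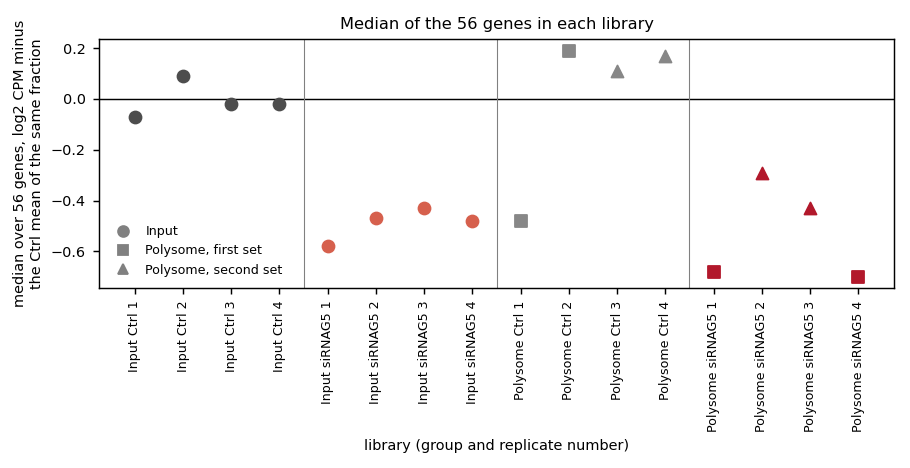
Each point is a library, and its height is the median over the 56 genes of log2 CPM minus the Ctrl mean of the same fraction, with squares and triangles for the 2 sets of Polysome libraries. The Input groups are separate, from -0.07 to 0.09 in Ctrl and from -0.58 to -0.43 in siRNAG5, whereas Polysome Ctrl 1 at -0.48 lies among the siRNAG5 libraries.

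The 2 sets of Polysome libraries treated the members unequally. With the treatments averaged, 43 genes were lower and 13 higher in the first set, from -1.11 for NOLC1 to 0.67 for NOP10 on the log2 scale. Of the 5 genes whose longest annotated transcript had at most 1500 bases, 4 were higher in the first set (NOP10, NHP2 at 0.64, NOP16 at 0.37 and FBL at 0.26) and GAR1 was lower at -0.37, while 9 of the 51 with a longer transcript were higher, IMP3 at 0.43 the most. Across the 56 genes the set difference ran against the length of the longest annotated transcript (Pearson r = -0.43 with log2 length, Spearman rho = -0.37, n = 56 genes of the same 8 libraries, which are not independent). The set difference and its relation to length were not taken over all genes, so they are not shown to be particular to the 56.

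The 56 promoters were searched for motifs because their genes moved together. RefSeq windows of 300 bases (GRCh38.p14, 250 bases before the start to 50 after it) were found for 47 of the 56 genes by symbol, and not for RRP12, TCOF1, NOLC1, MPHOSPH10, DCAF13, BOP1, RRP1B, NOP58 and RRS1. The E-box CACGTG, which reads the same on both strands, stood in 21 of the 47 (44.7%), against 8.77% of 27305 genes with a window and 12.7% of the 10419 of these that were tested in Input. An ETS-type motif, CCGGAAG on either strand, stood in 19 (40.4%), against 12.2% and 22.7%. The CCAAT box, CCAAT on either strand, was held by 20 (42.6%), against 39.7% and 43.5%. Among the genes that fell in Input the E-box share was 9 of 20 (45.0%), and among the others 12 of 27 (44.4%). For the ETS motif these shares were 10 of 20 (50.0%) and 9 of 27 (33.3%). For the CCAAT box they were 11 of 20 (55.0%) and 9 of 27 (33.3%). A gene listed with several windows, as were 6 of the 47 (12.8%) and 28.9% of the genes tested, was counted where any of them held the motif. A match is a string of letters, not a bound site.

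Windows are given for 4 genes, each listed with a single one, that differ in their response: RRP9 with both motifs and a fall in both fractions, NOP2 with the E-box alone and NOP16 with the ETS motif alone, which fell in both fractions too, and FBL, with both motifs and an Input level that did not pass the test. Capitals mark the E-box and the ETS motif. All lie on the minus strand and are read 5′ to 3′ along it: RRP9 at chr3:51941855-51942154, NOP2 at chr12:6568242-6568541, NOP16 at chr5:176388549-176388848 and FBL at chr19:39846330-39846629.
RRP9: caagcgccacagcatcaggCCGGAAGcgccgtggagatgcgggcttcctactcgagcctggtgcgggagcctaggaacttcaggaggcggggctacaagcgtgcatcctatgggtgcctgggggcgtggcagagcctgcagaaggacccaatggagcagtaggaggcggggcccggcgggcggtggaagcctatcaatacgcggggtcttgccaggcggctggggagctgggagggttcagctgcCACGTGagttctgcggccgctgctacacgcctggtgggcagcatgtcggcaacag
NOP2: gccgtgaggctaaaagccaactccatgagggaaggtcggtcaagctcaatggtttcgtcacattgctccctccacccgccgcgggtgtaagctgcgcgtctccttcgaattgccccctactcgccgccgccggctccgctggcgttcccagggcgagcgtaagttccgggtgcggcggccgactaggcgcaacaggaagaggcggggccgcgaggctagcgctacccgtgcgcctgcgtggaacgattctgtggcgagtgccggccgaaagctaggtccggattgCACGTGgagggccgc
NOP16: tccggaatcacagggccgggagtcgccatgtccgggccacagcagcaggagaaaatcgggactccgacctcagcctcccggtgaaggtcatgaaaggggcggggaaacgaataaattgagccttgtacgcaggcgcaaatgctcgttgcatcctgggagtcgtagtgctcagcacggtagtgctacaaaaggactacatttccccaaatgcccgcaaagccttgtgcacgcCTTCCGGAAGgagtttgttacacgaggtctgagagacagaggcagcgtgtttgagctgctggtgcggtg
FBL: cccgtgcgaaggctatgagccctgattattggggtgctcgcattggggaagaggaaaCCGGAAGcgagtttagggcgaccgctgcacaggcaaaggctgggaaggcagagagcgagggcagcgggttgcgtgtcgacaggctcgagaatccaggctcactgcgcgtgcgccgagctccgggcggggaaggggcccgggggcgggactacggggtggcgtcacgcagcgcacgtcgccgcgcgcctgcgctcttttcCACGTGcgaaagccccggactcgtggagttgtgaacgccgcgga

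Counted from 0 at the RefSeq start, the E-box began at -5 in RRP9, at 35 in NOP2 and at 6 in FBL. The ETS motif began at -231 in RRP9 and at -193 in FBL, and NOP16 held overlapping copies of both orientations at -19 and -16. A message that begins with C and at least 4 further pyrimidines, the start typical of TOP mRNAs, was read for 4 of the 47 genes (8.51%: EBNA1BP2, FBL, NOB1 and UTP14A), against 73.0% of 63 ribosomal protein genes and 7.41% of tested genes.

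Of the 7 snoRNP proteins 3 fell in Input, 1 of 3 of box C/D (NOP56) and 2 of 4 of box H/ACA (NOP10 and NHP2), and 6 passed the adjusted p. Of all genes 6.02% fell in Input and 19.1% were lower at the adjusted p. In the reported fit none of the 7 was called in Polysome (4.0% of all genes), where all 7 values were below 0 with a median of -0.57. That count depended on the fit. DESeq2 called NOP56, FBL and NHP2 lower (7.64% of all genes). With 1 surrogate variable (9.9%) or the library set as a term (10.3%), NOP56, FBL, NOP10, NHP2 and GAR1 were called. With that term and without Ctrl 2, NOP10 and NHP2 were called (8.83%). The fits with the term were chosen after seeing the data.

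NOP56, a scaffold of the box C/D particle whose introns hold 5 snoRNA genes, had the largest change of the snoRNP proteins (ENSG00000101361, chr20:2652593-2658393, GRCh38). Its CPM in Input was 679, 734, 697 and 645 in Ctrl and 322, 346, 362 and 358 in siRNAG5. The groups were far apart, with no siRNAG5 library near a Ctrl library (log2 FC -0.98, SE 0.06, adjusted p = 3.05e-12). In Polysome the message was much scarcer, at 98.2, 135, 144 and 142 CPM in Ctrl and 81.6, 105, 97.4 and 71.2 in siRNAG5. There Ctrl 1 lay below siRNAG5 2, so that the groups overlapped (log2 FC -0.50, SE 0.17, adjusted p = 0.0849).

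NOP58, its partner in the particle, had Input CPM of 137, 161, 142 and 134 in Ctrl and 101, 116, 121 and 113 in siRNAG5. All siRNAG5 libraries were lower (log2 FC -0.33, SE 0.07, adjusted p = 0.000495), a difference short of the fold required. Polysome CPM were 38.1, 69.1, 82.4 and 80.4 and 53.5, 66.1, 65.3 and 39.4, with Ctrl 1 the lowest of the 8 libraries and the groups mixed (log2 FC -0.22, SE 0.24, adjusted p = 0.581).

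FBL, or fibrillarin, is the methyltransferase of the box C/D particle and showed another pattern (ENSG00000105202, chr19:39834458-39846379). Its Input CPM was 1314, 1393, 1316 and 1299 in Ctrl and 1340.0, 1362, 1323 and 1224 in siRNAG5, overlapping throughout (log2 FC -0.01, SE 0.06, adjusted p = 0.942). In Polysome it was 949, 1210.0, 809 and 1009 in Ctrl and 689.9, 629, 552 and 738 in siRNAG5. Here every siRNAG5 library was below every Ctrl library, although the value missed the adjusted threshold (log2 FC -0.57, SE 0.18, adjusted p = 0.0711).

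NOP10, the smallest core protein of box H/ACA particles, had Input CPM of 354, 382, 379.5 and 339.9 in Ctrl and 222, 244, 237 and 234 in siRNAG5. The groups were separate and the message fell (log2 FC -0.62, SE 0.06, adjusted p = 7.01e-09). Polysome CPM of 397, 371, 239 and 260.1 in Ctrl and 245, 147, 156 and 253 in siRNAG5 differed by library set as well, with Ctrl 1 and 2 and siRNAG5 1 and 4 the high libraries of their groups (log2 FC -0.63, SE 0.24, adjusted p = 0.116). Within each set both silenced libraries lay below both Ctrl libraries. With the set as a term, chosen after seeing the data, NOP10 was called (log2 FC -0.63, adjusted p = 6.42e-05, edgeR), beside 10.3% of all genes.

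NHP2, which like NOP10 also belongs to telomerase, behaved alike and was the most abundant of the 56 per length. Input CPM were 1292, 1410.0, 1336 and 1236 in Ctrl and 856, 869, 918 and 817 in siRNAG5, without overlap (log2 FC -0.60, SE 0.06, adjusted p = 8.32e-09). Polysome CPM were 1416, 1294, 964 and 952 and 797, 497, 487 and 908. The lowest Ctrl library stayed above the highest siRNAG5 library there too, but the spread within groups was wide (log2 FC -0.75, SE 0.25, adjusted p = 0.0798).

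GAR1 and the pseudouridine synthase DKC1 complete the particle. GAR1 had Input CPM of 112, 123, 105 and 106 in Ctrl and 72.8, 84.2, 94.01 and 87.4 in siRNAG5 (log2 FC -0.38, SE 0.08, adjusted p = 0.000195). In Polysome the CPM of GAR1 were 44.4, 107, 96.5 and 94.3 and 45.9, 60.9, 57.5 and 52.9, with Ctrl 1 below all the silenced libraries (log2 FC -0.61, SE 0.23, adjusted p = 0.111). For DKC1 Input CPM of 158, 168, 155 and 158 in Ctrl stood against 119.5, 117, 133 and 124 in siRNAG5 (log2 FC -0.36, SE 0.06, adjusted p = 4.92e-05). Both genes were thus lower in all 4 Input siRNAG5 libraries by less than the fold required. DKC1 in Polysome gave 102, 162, 173 and 179 CPM in Ctrl and 94.1, 137, 145 and 91.3 in siRNAG5, overlapping, with Ctrl 1 and siRNAG5 1 and 4 low (log2 FC -0.35, SE 0.21, adjusted p = 0.307).

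Among the nucleolar scaffold and rDNA factors NOLC1 fell in Input, and in the reported fit no gene was called in Polysome. NOLC1, a chaperone of snoRNPs also known as Nopp140, had Input CPM of 118, 112, 110.2 and 121 in Ctrl and 72.7, 79.4, 83.7 and 81.5 in siRNAG5. These groups did not overlap (log2 FC -0.53, SE 0.07, adjusted p = 4.12e-07), and the call was made in 7 of the 8 fits that left out a library. Its Polysome CPM were 49.1, 97, 139 and 144 in Ctrl and 51.03, 105, 117 and 46.9 in siRNAG5. They were low in Ctrl 1 and in siRNAG5 1 and 4 (log2 FC -0.37, SE 0.35, adjusted p = 0.533). Of the others, siRNAG5 at 105 and 117 lay above Ctrl at 97. They lay below both Ctrl libraries of their own set, at 139 and 144. With 1 surrogate variable NOLC1 was called (log2 FC -0.54, adjusted p = 0.000156, edgeR), beside 9.9% of all genes. With the set as a term, chosen after seeing the data, it was short of the fold (log2 FC -0.42, adjusted p = 0.0423, edgeR). With that term and without Ctrl 2 the log2 FC was -0.16.

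NCL, or nucleolin, an abundant nucleolar protein that binds rRNA precursors, had Input CPM of 596, 694, 592 and 605 in Ctrl and 413, 468, 501 and 469.7 in siRNAG5. Every siRNAG5 library was below every Ctrl library (log2 FC -0.41, SE 0.07, adjusted p = 1.69e-05). In Polysome Ctrl 1 was less than any other Ctrl library by far, and CPM were 217, 547, 491 and 608 in Ctrl and 195, 369, 353 and 201 in siRNAG5 (log2 FC -0.69, SE 0.31, adjusted p = 0.177). NCL was called with 1 surrogate variable (log2 FC -0.81, adjusted p = 6.72e-05, edgeR), beside 9.9% of all genes. It was also called with the set as a term, chosen after seeing the data (log2 FC -0.73, adjusted p = 0.00844, edgeR), beside 10.3%. With that term and without Ctrl 2 it was not called (log2 FC -0.36).

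TCOF1 encodes treacle, which supports transcription of rDNA. Its Input CPM were 45.2, 46.8, 45.3 and 54.8 in Ctrl and 53.7, 46.99, 46.5 and 46.6 in siRNAG5, mixed between the groups (log2 FC 0.03, SE 0.08, adjusted p = 0.835). Polysome CPM of 30.3, 48.2, 63.9 and 71.1 in Ctrl and 34.5, 73.1, 67.8 and 31.6 in siRNAG5 overlapped over the whole range (log2 FC 0.01, SE 0.31, adjusted p = 0.991).

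**Figure D3:**
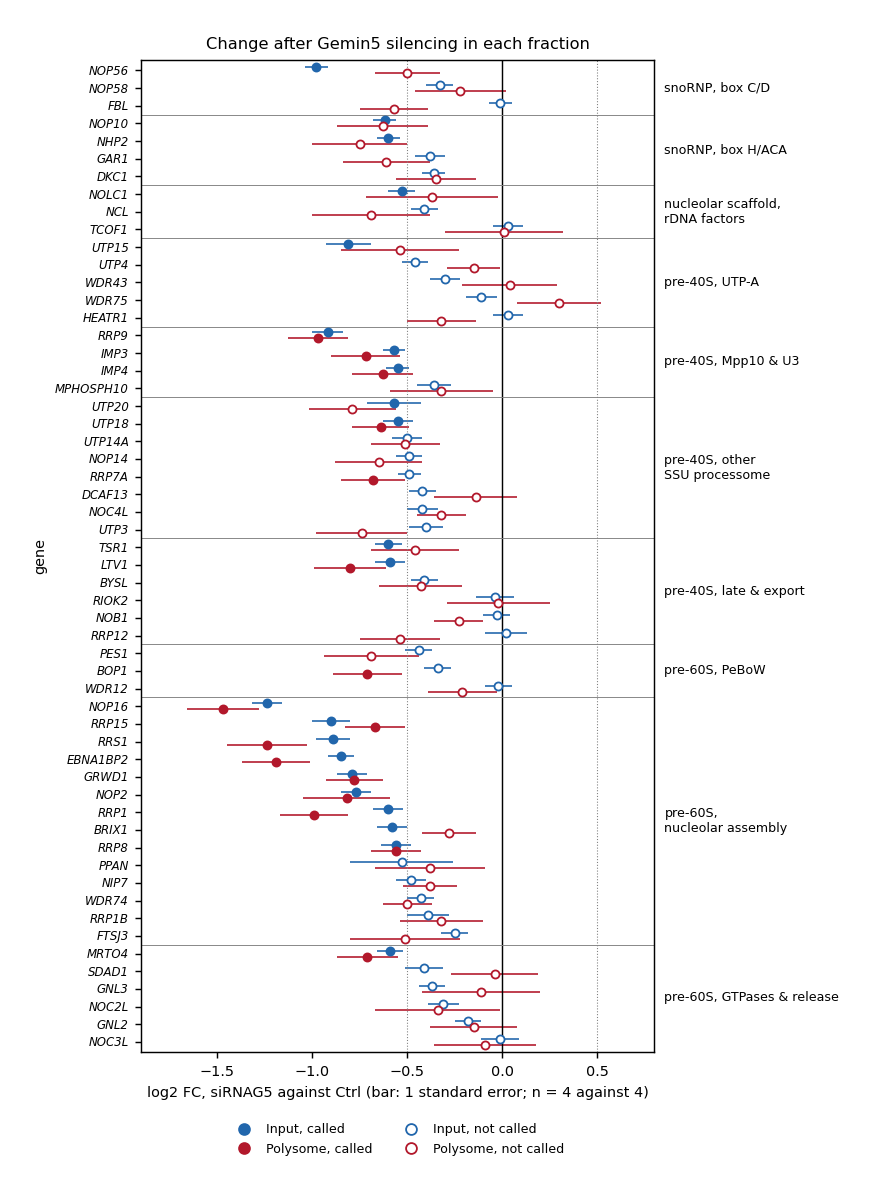
Points give the log2 FC of siRNAG5 against Ctrl for each gene in Input (blue) and Polysome (red), with bars of 1 standard error, filled where the gene was called, and dotted lines at the fold required. The largest falls are in the pre-60S nucleolar assembly group, led by NOP16 at -1.24 in Input and -1.47 in Polysome, and the Polysome bars are longer than the Input bars.

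The pre-40S factors fell in 8 of 23 cases in Input and 6 of 23 in Polysome, against 6.02% and 4.0% of all genes. The UTP-A complex, which binds the rRNA transcript first, contributed UTP15 alone in Input and none in Polysome. UTP15 had Input CPM of 19.7, 24.6, 17.9 and 21.96 in Ctrl and 9.05, 12.9, 13.8 and 11.8 in siRNAG5, with the groups apart (log2 FC -0.81, SE 0.12, adjusted p = 4.33e-06). Its Polysome CPM were 6.41, 11.2, 12.2 and 14.7 in Ctrl and 4.66, 9.46, 10.6 and 4.7 in siRNAG5, low in Ctrl 1 and in siRNAG5 1 and 4 (log2 FC -0.54, SE 0.31, adjusted p = 0.279).

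HEATR1, the largest protein of the complex, had Input CPM of 34.2, 39.5, 34.5 and 38.1 in Ctrl and 37.2, 37.6, 36.2 and 36.8 in siRNAG5. These values overlapped and gave no call (log2 FC 0.03, SE 0.08, adjusted p = 0.832). In Polysome CPM were 14.4, 21.1, 15.9 and 19.5 and 12.1, 17.2, 14.8 and 10.9, with siRNAG5 2 above Ctrl 1 and Ctrl 3 (log2 FC -0.32, SE 0.18, adjusted p = 0.279).

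WDR75 was the member with the highest Polysome value after silencing. Its Input CPM were 44.6, 50.4, 48.6 and 47.4 in Ctrl and 37.8, 41.02, 47.5 and 48.4 in siRNAG5, overlapping (log2 FC -0.11, SE 0.08, adjusted p = 0.307). Polysome CPM were 10.2, 17.7, 18.6 and 17.6 in Ctrl and 15.6, 22.9, 22.9 and 14.8 in siRNAG5. Ctrl 1 was the lowest library, and the difference was not called (log2 FC 0.30, SE 0.22, adjusted p = 0.398). The remaining UTP-A members, UTP4 and WDR43, had Input log2 FC of -0.46 (SE 0.07) and -0.30 (SE 0.08), both past the adjusted p and short of the fold.

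The Mpp10 complex and the U3 protein formed the pre-40S group with the highest share of falls, 3 of 4 in Input and the same count in Polysome. RRP9 binds the U3 snoRNA and had the largest change of any pre-40S factor (ENSG00000114767, chr3:51933429-51941904). In Input its CPM were 103, 134, 113 and 110.3 in Ctrl and 60.1, 60.1, 63.4 and 58.4 in siRNAG5. In Polysome they were 77.9, 115, 77.4 and 83.5 in Ctrl and 38.3, 44.4, 43.5 and 48.7 in siRNAG5. The groups were apart in both fractions, with a high Ctrl 2 in each (Input log2 FC -0.92, SE 0.08, adjusted p = 2.76e-10, Polysome log2 FC -0.97, SE 0.16, adjusted p = 0.00819). IMP3 and IMP4, which bring U3 and the pre-rRNA together, fell by 0.57 and 0.55 on the log2 scale in Input and by 0.72 and 0.63 in Polysome (adjusted p = 0.0376 and 0.0364 in Polysome, edgeR). Their Polysome calls were each made in only 2 of the 8 fits without a library.

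MPHOSPH10, the third protein of that complex, was not called. Its Input CPM were 42.3, 39.4, 35.3 and 40.04 in Ctrl and 24.8, 33.2, 32.1 and 30.6 in siRNAG5, lower in each silenced library (log2 FC -0.36, SE 0.09, adjusted p = 0.00196). In Polysome they were 16.2, 29.4, 31.9 and 33.4 and 15.8, 28.8, 26.9 and 14.5, low in Ctrl 1 and siRNAG5 1 and 4 and overlapping (log2 FC -0.32, SE 0.27, adjusted p = 0.47).

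All 8 of the other processome factors passed the adjusted p in Input, in a narrow range from -0.57 to -0.40, and 2 of them, UTP20 and UTP18, were called. Of all genes 19.1% were lower at the adjusted p and 6.02% were called lower. UTP20, a very long scaffold protein, had Input CPM of 8.35, 12.7, 9.24 and 10.1 in Ctrl and 5.52, 6.77, 7.01 and 7.67 in siRNAG5. The groups were apart (log2 FC -0.57, SE 0.14, adjusted p = 0.00172), and the call held in 6 of 8 fits without a library. Polysome CPM of 2.83, 5.49, 4.52 and 3.93 in Ctrl and 1.84, 2.65, 2.47 and 2.44 in siRNAG5 did not overlap either, though the adjusted p was just above the threshold (log2 FC -0.79, SE 0.23, adjusted p = 0.0553).

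UTP3, a processome component also known as SAS10, had Input CPM of 42.3, 47.3, 40.2 and 42.9 in Ctrl and 27.8, 33.2, 34.6 and 34.05 in siRNAG5. Silenced libraries were lower without reaching the fold (log2 FC -0.40, SE 0.09, adjusted p = 0.00045). In Polysome CPM were 16.8, 36.01, 34.6 and 34.3 and 13.5, 21.5, 20.97 and 14.3, with Ctrl 1 set far below the other Ctrl libraries (log2 FC -0.74, SE 0.24, adjusted p = 0.0745). RRP7A, called in Polysome, had a log2 FC of -0.68 (SE 0.17) there and -0.49 (SE 0.06) in Input, and UTP18 of -0.64 (SE 0.15) and -0.55 (SE 0.08). The Polysome calls of RRP7A and UTP18 were made in 2 and 3 of the 8 fits without a library.

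Late and export factors of the small subunit gave 2 falls of 6 in Input, TSR1 and LTV1. TSR1, a GTPase-like protein that holds the maturing subunit inactive, had Input CPM of 116, 135, 122 and 121 in Ctrl and 74.05, 79.8, 85.2 and 84.2 in siRNAG5. This was a clean separation (log2 FC -0.60, SE 0.07, adjusted p = 8.96e-08). Polysome CPM were 60.1, 108, 112 and 117 in Ctrl and 54.97, 84.4, 86.5 and 54.2 in siRNAG5, with Ctrl 1 among the silenced libraries (log2 FC -0.46, SE 0.23, adjusted p = 0.217). LTV1, an adaptor on the beak of the subunit, fell in both fractions, by 0.59 in Input and 0.80 in Polysome on the log2 scale. Its Polysome groups overlapped, with Ctrl 1 at 42.7 CPM below siRNAG5 2 at 43.03, and the call was made in 3 of the 8 fits without a library.

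RRP12, an export factor, had Input CPM of 12.9, 16.1, 14.03 and 16.6 in Ctrl and 14.2, 15.3, 15.7 and 14.6 in siRNAG5. The groups overlapped entirely (log2 FC 0.02, SE 0.11, adjusted p = 0.928). Polysome CPM were 3.66, 6.31, 4.74 and 6.21 and 3.07, 4.27, 3.25 and 3.32, lower in siRNAG5 except that Ctrl 1 lay inside the silenced range (log2 FC -0.54, SE 0.21, adjusted p = 0.129). Neither the kinase RIOK2 nor the endonuclease NOB1, which cuts the 3′ end of 18S rRNA, was called, with Input log2 FC of -0.04 (SE 0.10) and -0.03 (SE 0.07).

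Pre-60S factors fell in 10 of 23 cases in each fraction, against 6.02% of all genes in Input and 4.0% in Polysome. The PeBoW complex of PES1, BOP1 and WDR12, needed to process the spacer between 5.8S and 28S rRNA, had no call in Input and 1 in Polysome, BOP1. PES1 had Input CPM of 191, 228, 212 and 216 in Ctrl and 158, 153, 158 and 148 in siRNAG5, apart but short of the fold (log2 FC -0.44, SE 0.07, adjusted p = 3.68e-06). Its Polysome CPM were 70.5, 139.9, 166 and 164 and 65.5, 101, 94.7 and 62.4, with Ctrl 1 below siRNAG5 2 and 3 (log2 FC -0.69, SE 0.25, adjusted p = 0.108).

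BOP1 had Input CPM of 173, 201, 179 and 202 in Ctrl and 160.5, 144, 155 and 135 in siRNAG5 (log2 FC -0.34, SE 0.07, adjusted p = 0.000348). Polysome CPM were 115, 172, 145 and 176 in Ctrl and 68.7, 109, 101 and 81.2 in siRNAG5 (log2 FC -0.71, SE 0.18, adjusted p = 0.04). The groups were separate in both fractions, yet the Polysome call was kept in only 2 of the 8 fits without a library. WDR12 had Input CPM of 60.6, 64.4, 69.2 and 61.99 in Ctrl and 60.4, 65.6, 61.4 and 62.8 in siRNAG5, entirely mixed (log2 FC -0.02, SE 0.07, adjusted p = 0.836). In Polysome WDR12 gave 34.4, 51.04, 43.7 and 49.7 and 32.8, 44.4, 43.7 and 28.9 CPM, also overlapping (log2 FC -0.21, SE 0.18, adjusted p = 0.48).

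Pre-60S nucleolar assembly was the group with most falls, 9 of 14 in Input and 8 of 14 in Polysome, against 6.02% and 4.0% of all genes. All 14 values were below 0 in both fractions, with medians of -0.59 and -0.62. NOP16, a small protein of early pre-60S particles, changed most of all 56 (ENSG00000048162, chr5:176383946-176388927). In Input its CPM were 242, 312, 276 and 240.4 in Ctrl and 97.8, 116, 117 and 118 in siRNAG5. Polysome CPM were 263, 294, 195 and 224 in Ctrl and 80.6, 76.5, 74.6 and 113 in siRNAG5. No silenced library came near the Ctrl range in either fraction (Input log2 FC -1.24, SE 0.08, adjusted p = 3.05e-12, Polysome log2 FC -1.47, SE 0.19, adjusted p = 0.0019).

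RRS1 helps bring the 5S RNA with its ribosomal proteins into the precursor (ENSG00000179041, chr8:66429014-66430733). Its Input CPM were 60.4, 75.3, 53.9 and 59.3 in Ctrl and 32.7, 33.9, 33.6 and 33.6 in siRNAG5, where the silenced libraries were nearly identical (log2 FC -0.89, SE 0.09, adjusted p = 4.82e-09). In Polysome 42.3, 69.4, 55.6 and 56.98 CPM in Ctrl stood against 17.4, 28.3, 28.2 and 18.2 in siRNAG5, with a gap between the groups and the silenced libraries divided by set (log2 FC -1.24, SE 0.21, adjusted p = 0.00885). EBNA1BP2, another early pre-60S factor, fell by 0.85 in Input and by 1.19 in Polysome on the log2 scale (adjusted p = 3.43e-10 and 0.00477, edgeR).

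RRP1, also of early particles, had Input CPM of 97.8, 115, 93.4 and 94.5 in Ctrl and 67.2, 59.9, 71.1 and 63.8 in siRNAG5, with no overlap (log2 FC -0.60, SE 0.08, adjusted p = 3.94e-07). Polysome CPM of 62.5, 90.5, 78.05 and 82.4 and 27.5, 46.1, 42.7 and 37.2 were separate as well, and siRNAG5 1 was the lowest library (log2 FC -0.99, SE 0.18, adjusted p = 0.0117). The call in Polysome was made in 7 of the 8 fits without a library, as was that of GRWD1.

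FTSJ3, a methyltransferase of the precursor, had the smallest Input change of this group. In Input its CPM were 56.3, 61.9, 63.1 and 61.8 in Ctrl and 50.03, 48.8, 55.4 and 48.5 in siRNAG5, just apart (log2 FC -0.25, SE 0.07, adjusted p = 0.00894). In Polysome they were 15.8, 30.7, 35.5 and 40.1 and 13.5, 26.9, 27.1 and 15.2, where Ctrl 1 lay among the silenced libraries (log2 FC -0.51, SE 0.29, adjusted p = 0.284). Among the others the rRNA cytosine methyltransferase NOP2 fell by 0.77 in Input, the chaperone of ribosomal protein uL3 GRWD1 by 0.79, RRP15 by 0.90, BRIX1 by 0.58 and the rRNA adenine methyltransferase RRP8 by 0.56 on the log2 scale. PPAN was measured by only 107 reads over the 4 Input Ctrl libraries and overlaps a readthrough gene, PPAN-P2RY11, so that its value is uncertain (log2 FC -0.53, SE 0.27, adjusted p = 0.12).

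Of the 6 GTPases and release factors MRTO4 alone was called in Input, and it alone in Polysome. MRTO4 keeps the place of the stalk protein P0 on the precursor. In Input its CPM were 84.7, 102, 98.3 and 91.9 in Ctrl and 59.3, 60.2, 66.5 and 61.5 in siRNAG5. Polysome CPM were 78.03, 124, 111 and 122 in Ctrl and 59.7, 60.1, 63.1 and 74.3 in siRNAG5. Silenced libraries lay below every Ctrl library in both fractions (Input log2 FC -0.59, SE 0.07, adjusted p = 2.22e-07, Polysome log2 FC -0.71, SE 0.16, adjusted p = 0.0228), but without a library the Polysome call was made in 3 of 8 fits.

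SDAD1, needed for export of the large subunit, had Input CPM of 25.04, 24.6, 22.8 and 20.2 in Ctrl and 15.4, 17.1, 18.6 and 18.02 in siRNAG5 (log2 FC -0.41, SE 0.10, adjusted p = 0.00153). In Polysome CPM were 12.3, 19.8, 19.9 and 19.4 and 14.1, 20.3, 22 and 10.8, with no shift between the groups (log2 FC -0.04, SE 0.23, adjusted p = 0.933). NOC3L had Input CPM of 18.7, 18.2, 15.2 and 20.4 in Ctrl and 17.7, 17.9, 18.3 and 17.2 in siRNAG5 (log2 FC -0.01, SE 0.10, adjusted p = 0.926). Its Polysome values were 10.6, 16.9, 17.8 and 19.6 and 9.78, 21.03, 18.5 and 9.72 CPM (log2 FC -0.09, SE 0.27, adjusted p = 0.872). NOC3L groups overlapped in both fractions, and those of SDAD1 in Polysome. The nucleolar GTPases GNL2 and GNL3, the latter known as nucleostemin, had Input log2 FC of -0.18 (SE 0.07) and -0.37 (SE 0.07).

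**Figure D4:**
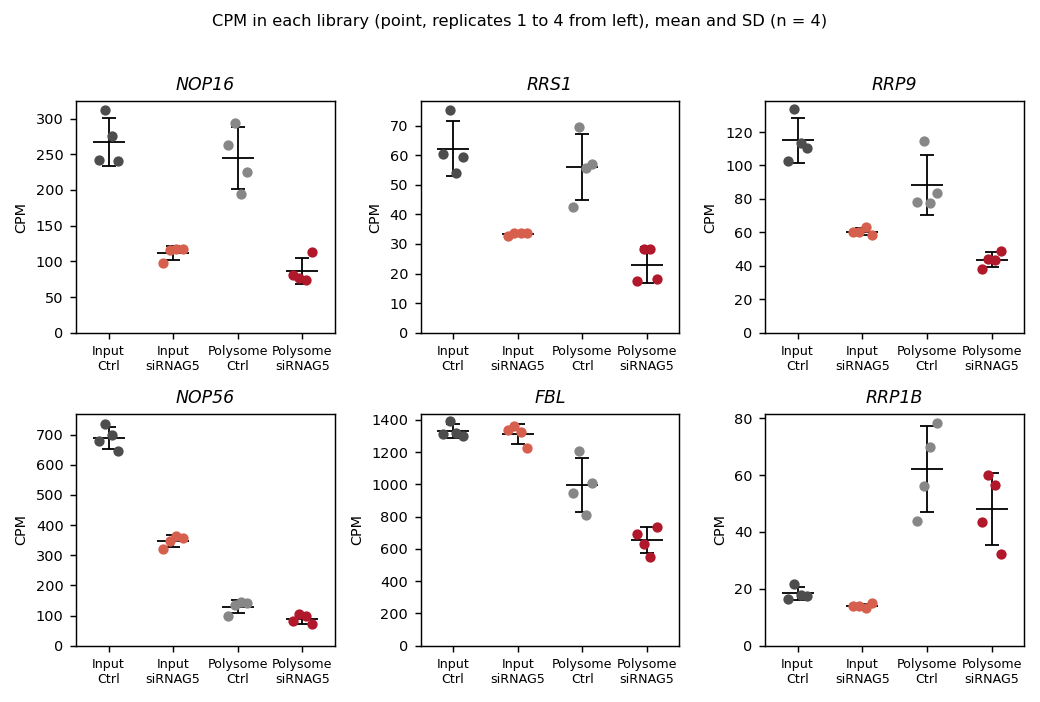
Points are the CPM of the 4 libraries of each group for 6 genes, with the mean and SD, on axes that start at 0. NOP16, RRS1 and RRP9 drop in both fractions, NOP56 drops in Input and is scarce in Polysome, FBL groups are apart in Polysome without a call, and RRP1B is higher in Polysome than in Input.

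Whether silencing moved the messages differently in Polysome and in Input was tested as the difference of the changes. No member was called and no gene of 14958 tested (0.0% lower and 0.0% higher) by edgeR, although without adjustment 4.69% of all genes were lower and 2.59% higher at p under 0.05. Among the 56, FBL and RRP12 were lower at that level (2 genes) and NOP56 higher. DESeq2 called 0 members, and 11 lower and 18 higher over all genes. With 1 surrogate variable 2 members were called lower, BOP1 (log2 difference -0.56) and FTSJ3 (-0.65), beside 3.23% of all genes in that fit. The median difference was -0.08 over the 56 and -0.06 over all genes.

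The most negative differences were those of RRP12 at -0.59 (SE 0.23), FBL at -0.59 (SE 0.19) and RRP1 at -0.42 (SE 0.20). At the other end stood NOP56 at 0.44 (SE 0.19), WDR75 at 0.38 (SE 0.24) and SDAD1 at 0.33 (SE 0.27). Their adjusted p lay between 0.483 for FBL and 0.843 for SDAD1. Across the 56 genes the Input and Polysome changes ran together (Pearson r = 0.71, Spearman rho = 0.68), as they did across all 13708 genes tested in both (0.72 and 0.69), where genes are not independent replicates.

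Compared with the lysate, many of these messages held a smaller share of the polysomal RNA. In Ctrl cells 23 of the 56 were called lower in Polysome than in Input, against 18.8% of 13666 genes tested, and 1 higher, against 20.8%. In siRNAG5 cells 26 were lower, against 21.2% of 14795 genes, and 1 higher, against 23.9%. Both conditions called 20 genes lower, where 15.8% of genes tested in both were. Input libraries of Ctrl enter both this comparison and that of silencing, so the values are given side by side and not correlated.

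Pre-40S factors made up 12 of the 23 in Ctrl, among them 4 of 5 of UTP-A, and pre-60S factors 9. NOP56 was the lowest in Ctrl at -2.40 (SE 0.15), followed by WDR75 at -1.56 (SE 0.16) and RRP12 at -1.50 (SE 0.18). In siRNAG5 RRP12 was the lowest at -2.01 (SE 0.15), with NOP56 at -1.88 (SE 0.14) and WDR75 at -1.11 (SE 0.17). UTP20, NOP2, NOP58 and HEATR1 were lower in both conditions, with Ctrl values of -1.25, -1.25, -1.08 and -1.03. No box H/ACA protein was called in Ctrl, and the Ctrl median of that group was -0.18.

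RRP1B, a paralog of RRP1, was the exception in both conditions, and was singled out after its values were seen (ENSG00000160208, chr21:43659560-43696079). Its CPM were 16.4, 21.7, 17.9 and 17.6 in Input Ctrl and 43.9, 56.1, 69.97 and 78.1 in Polysome Ctrl. In silenced cells they were 13.97, 13.9, 13.1 and 15.03 in Input and 43.4, 59.98, 56.4 and 32.1 in Polysome. Every Polysome library was above every Input library (Ctrl log2 FC 1.76, SE 0.16, adjusted p = 6.72e-07, siRNAG5 log2 FC 1.87, SE 0.19, adjusted p = 1.08e-05). RRP1 itself had a log2 FC of -0.34 (SE 0.13) in Ctrl and -0.68 (SE 0.15) in siRNAG5.

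**Figure D5:**
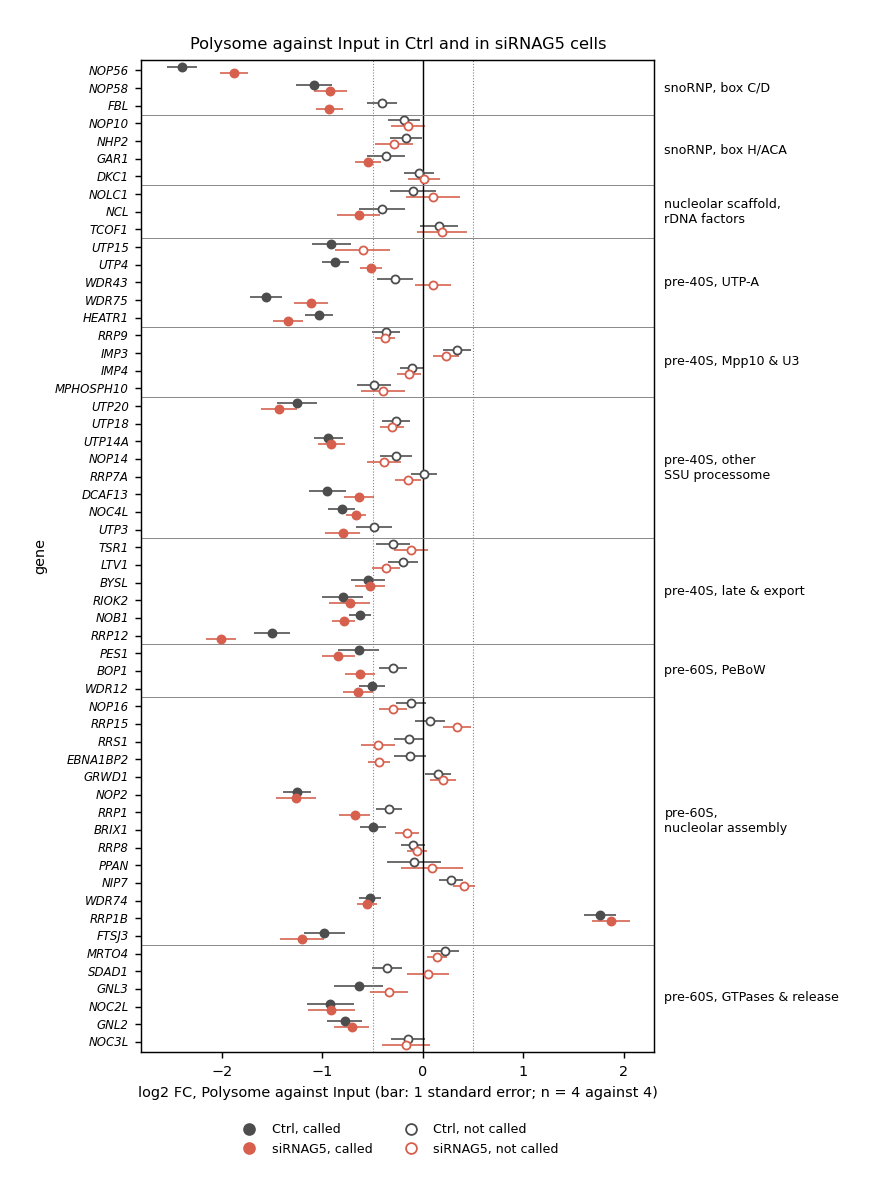
Points give the log2 FC of Polysome against Input for each gene in Ctrl (grey) and siRNAG5 (orange) cells, with bars of 1 standard error, filled where called. NOP56 lies farthest left at -2.40 in Ctrl, RRP1B alone lies far right at 1.76, and most UTP-A members lie left of the dotted line at -0.5.

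The genes that hold snoRNA genes in their introns (NOP56, NOP58, DKC1, NCL, WDR43, TSR1, PPAN and GNL3) fell in 2 of 8 cases in Input and in 0 of 8 in Polysome. The other 48 fell in 20 and 16 cases, and of all genes 6.02% and 4.0% fell. Median log2 FC in Input were -0.39 and -0.47. In Polysome against Input of Ctrl, 3 of the 8 host genes and 20 of the 48 others were called lower, against 18.8% of all genes.

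Levels of the genes differed widely. Per length of all annotated exons, NHP2 was highest in Input Ctrl at 893 ± 49.9 RPKM (CPM per 1000 bases, mean ± SD, n = 4), followed by FBL at 622 ± 19.7 and NOP10 at 231 ± 13.0. NOP56 at 139 ± 7.5 and EBNA1BP2 at 133 ± 13.5 RPKM were within their spread of each other. The median was 23.8 RPKM. At the low end stood RRP12 at 1.75 ± 0.201, UTP20 at 1.01 ± 0.188 and PPAN at 0.82 ± 0.111 RPKM, the last pair within its spread. With the length of the longest transcript instead, the same 5 genes came first and 7 genes moved by more than 5 places. Across the 56 the Input change showed little relation to the level (r = -0.21 with log2 CPM, rho = -0.26) or to transcript length (r = 0.21, rho = 0.21), with n = 56 genes of the same 8 libraries.

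Further assembly genes outside the 56 were counted from separate lists. In Input 6.02% of all genes were called lower and 10.5% higher. Of 30 other pre-40S factors 6 fell in Input, with a median log2 FC of -0.30. The lowest were RRP36 at -0.94 and PNO1 at -0.82, and the highest RIOK3 at 0.17 and TBL3 at 0.26. Among 31 other pre-60S factors 6 fell and 1 rose, RSL24D1 at 0.50 (adjusted p = 1.08e-06, edgeR), with a median of -0.23. NOL12 at -1.09 and MAK16 at -0.62 were the lowest of these, and NOP53 lay at 0.33.

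Of 15 genes of the rRNA exosome and trimming 3 fell in Input, with EXOSC4 at -0.84 and EXOSC3 at -0.57 the lowest and XRN2 at 0.16 and MTREX at 0.31 the highest, and the median was -0.18. The snoRNP assembly list fell in 2 of 9 cases, NUFIP1 at -0.69 and SNU13 at -0.55, with RUVBL2 at -0.08 and ZNHIT3 at -0.02 at the other end and a median of -0.41. Polysome counts of the 4 lists were 4 of 30, 3 of 31, 2 of 15 and 0 of 9 lower, against 4.0% of all genes. None was higher, against 3.95%, a share at which lists of this size would hold few or none.

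Some reads may belong to neighbouring genes. On the GENCODE release 44 annotation (GRCh38) 10 of the 56 genes overlapped another gene on their own strand and 30 a gene on the other strand. The library kit keeps strand, and whether counting used it is not given in the sources used here.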

How the data were processed

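Members, roles and comparison lists were chosen with earlier results of these data known. The deposited files hold raw counts per Ensembl gene, which the authors made by aligning paired reads of stranded poly(A) libraries with STAR 2.5.3a to GRCh38 (Ensembl release 91) and counting with QoRTs. Rows that name no gene were left out. Totals and multi-mapped shares are in the report. SD cover the spread between 4 biological samples. Each SE is the absolute log2 FC divided by the square root of edgeR's F statistic, whose dispersion draws on all genes.

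From these counts edgeR 4.0.16 (filterByExpr, TMM, quasi-likelihood F test, R 4.3.3) was fitted over all genes within each pair of groups, and over all 16 libraries for the difference between fractions. Calls required both an adjusted p (Benjamini-Hochberg) under 0.05 and an absolute log2 FC over 0.5. CPM use TMM sizes over all libraries. Alternatives were DESeq2 1.42.0, RLE size factors, no filter, a replicate block, 1 surrogate variable (sva 3.50.0) and each library left out. Scripts were tested on simulated data.

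Library values are given for the largest and smallest Input change of each role, the 3 most negative and 3 most positive differences between fractions, the core snoRNP proteins, PeBoW, NCL and RRS1, and for RRP1B outside this rule. GEMIN5 checks the labels. Promoters are RefSeq, GRCh38.p14.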

Additional observations from a re-analysis of the deposited data

Results flagged for a closer look

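In 10 of 124 groups of 4 libraries, over the 30 genes with library values and GEMIN5, the highest or lowest library stood apart from the other 3 by a gap whose share of the group's range passed Dixon's critical value, which chance alone does in about 1 group of 20. Polysome Ctrl 1 was the low library in 4 of them, with a ratio of gap to range of 0.909 for UTP3, 0.84 for TSR1, 0.935 for SDAD1 and 0.879 for WDR75. Polysome Ctrl 2 was the high library for RRP9 (0.836), and Input Ctrl 2 for NCL (0.873). For NOP16, Input siRNAG5 1 was low (0.909) and Polysome siRNAG5 4 high (0.843). TCOF1 was high in Input Ctrl 4 (0.834) and in Input siRNAG5 1 (0.934).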

How the results depend on the processing

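With the adjusted p and no minimum fold, 46 genes were called lower in Input (19.1% of all genes). In Polysome against Input 28 were then lower and 1 higher in Ctrl (23.2% and 24.3%), and 31 and 2 in siRNAG5 (25.2% and 27.0%). The count lower in Polysome was 25 with DESeq2 (7.64% of all genes), 32 with 1 surrogate variable (9.9%) and 30 with the library set as a term (10.3%), or 16 with that term and without Ctrl 2 (8.83%), the last pair chosen after seeing the data, so that calls rose over all genes as well (4.0% in the reported fit). UTP3, UTP20 and PES1, uncalled in the reported Polysome fit, were called lower by DESeq2, with the surrogate variable and with the set term. UTP15, RRP12 and FTSJ3 were called with the surrogate variable and with the term, and TSR1 with the surrogate variable. With the term and without Ctrl 2, UTP20 alone of these was called. The difference between the fractions gave 2 genes lower with 1 surrogate variable (3.23% of all genes). Leaving out each library in turn gave 19 to 28 lower in Input (4.83% to 6.65% of all genes) and 4 to 19 in Polysome (0.768% to 5.72%). For Polysome against Input it gave 18 to 26 lower in Ctrl (16.8% to 19.8%) and 22 to 30 in siRNAG5 (18.6% to 21.9%). It gave 0 for the difference (at most 0.00661%). No gene was called higher after silencing under any of these. Deviations of same-numbered libraries correlated at -0.08 to 0.07 between treatments in Input, -0.68 to 0.61 in Polysome, and between fractions at -0.08 to 0.26 in Ctrl and -0.27 to 0.21 in siRNAG5. Not every pair passed 0.1 in any of these, and although Input and Polysome came from the same lysates, no label says that the numbers mark them, so the libraries were not treated as paired. A replicate block gave 22 lower in Input (5.99% of all genes), 17 in Polysome (3.87%) and 0 for the difference (0.0%). For Polysome against Input it gave 25 and 27 lower, beside 19.7% of all genes in Ctrl and 22% in siRNAG5. Signs of uncalled values changed in 17 cases of 8 genes in Input, 36 of 8 in Polysome and 110 of 26 for the difference, and no called value reversed. The cause of these moves was not tested. Depth limits PPAN and UTP20 most.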
